A study of Mus musculus with 18 samples.

Results

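The genes described here are 10 genes of neural progenitors and radial glia: Sox1, Sox3, Sox4, Sox9, Sox11, Sox21, Nes, Fabp7, Vim and Msi1. They were taken by symbol from a table of RNA-seq expression values, by a list drawn up with earlier results of these data known, and each had 1 RefSeq transcript among the 23421 gene entries of the table. The series asked how Polycomb-dependent methylation of histone H3 lysine 27 bears on transcription in mouse embryonic stem (ES) cells. It holds 18 samples, of which the 6 RNA-seq libraries were used and the 12 ChIP-seq samples were not analysed here. Every group had 1 library, so no difference has a replicate check and no test was possible.

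All cells were of the 129/Ola background. E36 ES cells, wild type or labelled as knock-out (KO) for Eed, were grown in 15% serum with leukemia inhibitory factor. Eed is the subunit that Polycomb repressive complex 2 (PRC2), the lysine 27 methyltransferase, needs for its activity. Embryoid bodies (EBs), aggregates in which ES cells differentiate, were made from both genotypes. Cells were placed in hanging drops without the inhibitory factor for 48 hours, given 0.5 µM all-trans-retinoic acid from day 2 to day 5 and cultured to day 9. E14 ES cells, labelled wild type, carried a pLKO.1 lentiviral hairpin that was either a control (shCtrl) or directed at Setd2 (shSetd2). Setd2 is the enzyme that trimethylates histone H3 lysine 36. These cells went through puromycin selection and were collected on day 4 after it. The labels do not describe the Eed allele or say whether each line was 1 clone.

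Neural progenitors of the early nervous system are kept dividing by SoxB1 factors (Sox1, Sox2 and Sox3), which share a DNA-binding domain and largely overlap in function. SoxB2 factors such as Sox21 counter them, SoxC factors (Sox4, Sox11, Sox12) act as cells commit to neurons, and the SoxE factor Sox9 marks the shift of progenitors towards glia. Radial glia, the progenitors that span the neural wall, carry the intermediate filaments nestin (Nes) and vimentin (Vim), the fatty acid binding protein Fabp7 and the RNA-binding protein Musashi-1 (Msi1). Several of these genes are also used elsewhere: Vim in mesenchyme, Sox9 in cartilage and neural crest, and Sox4 and Sox11 in many embryonic tissues.

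The unit is FPKM, in which fragments are counted per kilobase of a transcript and per M mapped fragments. Such values scale a gene's reads to its length and can be set beside those of other genes. FPKM totals ran from 452782 to 598935 per library. The table gives no depth, and the smallest values of low genes gave about 16.3 to 23.7 M fragments per library, with EB Eed KO the lowest. Setd2 was at 16.8 FPKM with the control hairpin and 2.59 with the Setd2 hairpin. Eed was at 72.3 in wild-type and 77.8 in Eed KO ES cells, and at 25.0 and 21.8 in the corresponding EBs, so its RNA level does not check the KO label. The 8 pluripotency markers summed to between 3121 and 4420 FPKM in the 4 ES libraries and to 238.5 and 25.8 in wild-type and KO EBs. Gfap, Aqp4, S100b, Mag and Mog, which mark mature glia, were each under 1 FPKM in all 6 libraries. The word glial therefore applies here to radial glia and not to mature glial cells. The 13 postmitotic neuron markers summed to 613 FPKM in wild-type and 15.3 in KO EBs. In the 4 ES libraries that sum was between 178 and 242 FPKM, so it is no measure of neurons alone. These are whole-culture libraries, in which fewer cells of a type and less RNA per cell cannot be told apart.

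Promoters were compared because most of these genes shifted together in EBs. The RefSeq table of promoter windows (GRCm38.p6, from 250 bases before to 50 after the start) held 7 of the 10 genes; Sox3, Sox9 and Msi1 had none. The 250 bases before the start are shown for Fabp7 (chr10:57784673-57784922), Sox1 (chr8:12395269-12395518) and Vim (chr2:13574061-13574310), all on the plus strand and written 5′ to 3′. Fabp7 and Sox1 were the poorest and the richest of the 7 windows in CG dinucleotides, the sites of DNA methylation, and Vim was the only window with a TATA box motif. Capitals mark each CG.
Fabp7: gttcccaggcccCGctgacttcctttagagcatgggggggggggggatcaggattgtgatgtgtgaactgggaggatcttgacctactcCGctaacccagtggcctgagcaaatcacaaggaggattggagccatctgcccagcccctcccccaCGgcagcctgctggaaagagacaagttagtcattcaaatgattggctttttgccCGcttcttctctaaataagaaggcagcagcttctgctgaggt
Sox1: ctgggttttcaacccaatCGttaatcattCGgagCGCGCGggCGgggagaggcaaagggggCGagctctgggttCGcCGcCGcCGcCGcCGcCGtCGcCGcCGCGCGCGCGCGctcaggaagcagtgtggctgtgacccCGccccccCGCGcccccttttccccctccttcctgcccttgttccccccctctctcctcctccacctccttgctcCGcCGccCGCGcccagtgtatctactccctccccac
Vim: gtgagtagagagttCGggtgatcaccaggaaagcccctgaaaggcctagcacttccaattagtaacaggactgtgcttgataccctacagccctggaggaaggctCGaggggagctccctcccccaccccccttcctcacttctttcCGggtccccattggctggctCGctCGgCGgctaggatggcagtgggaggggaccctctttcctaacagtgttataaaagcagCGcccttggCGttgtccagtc

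Over the full windows Fabp7 held 6 CG, Vim 11, Sox4 12, Nes 18, Sox11 21, Sox21 22 and Sox1 37. The median of all 32851 windows was 7, and 43.6% of them held fewer CG than Fabp7 and 94.4% fewer than Sox1. In 6 of the 7 the CG count was therefore above the median window, with Fabp7 just below it. On both strands, the CCAAT motif was found in 5 of the 7 windows (Sox1, Sox4, Sox11, Fabp7 and Vim), against 37.4% of all windows, and GGGCGG in 3 (35.7% of all). TATAAA was found in Vim alone (13.6% of all), CANNTG in 3 (72.3%), TGGGAA in 3 (25.6%), and AACAAT, a core Sox motif, in 0 (10.7%). Matches can overlap and describe the letters only.

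**Figure D1:**
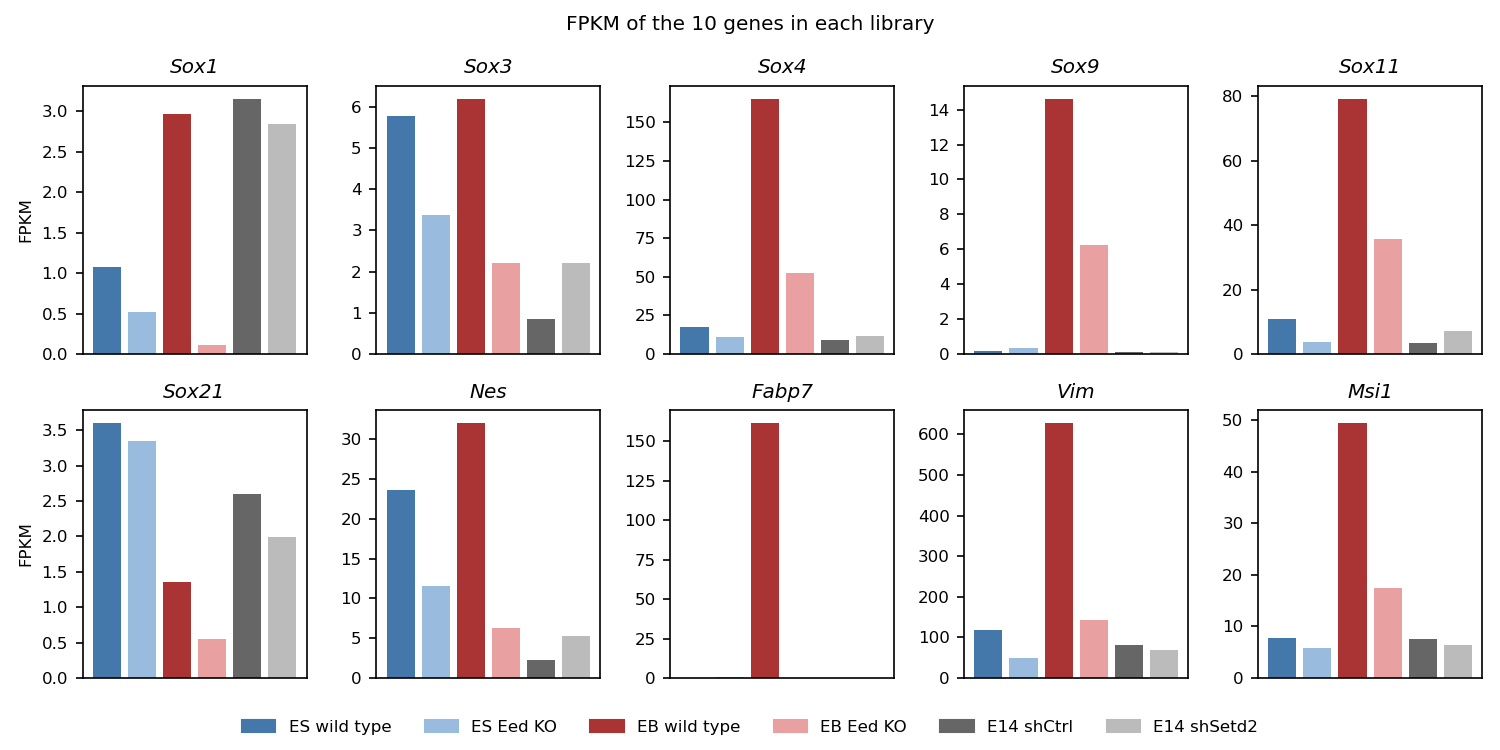
FPKM of the 10 genes (panels) in the 6 libraries, 1 bar per library and no error bars because each group has 1 library; each panel has its own vertical axis starting at 0. Vim has the highest level of the 10 in each of the 6 libraries, and Fabp7 reaches 162 FPKM in wild-type EBs against under 1 in each of the others.

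Sox1, the earliest SoxB1 factor restricted to neural tissue (NM_009233, mm9 chromosome 8, in a locus listed at 12385771 to 12436732), was weak in all libraries. Its level was 1.08 FPKM in wild-type and 0.518 in Eed KO ES cells, 2.97 in wild-type and 0.111 in KO EBs, and 3.15 with the control and 2.84 with the Setd2 hairpin. KO EBs had the lowest of the 6 values, 3.74% of that in wild-type EBs. The locus is shared with the non-coding transcript Sox1ot and the libraries do not mark strand, so the division of reads between them is uncertain; Sox1ot was listed at 0.718 to 1.12 FPKM.

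Sox3, the SoxB1 factor on the X chromosome (NM_009237, 58144541 to 58146605), differed between the ES lines as well as by genotype. It was at 5.78 FPKM in wild-type and 3.37 in Eed KO ES cells, and at 6.19 in wild-type and 2.22 in KO EBs. In E14 cells it was at 0.860 with the control and 2.21 with the Setd2 hairpin. The control-hairpin value, the lowest, rested on about 41 fragments, a counting error of 15.7%.

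Sox21, the SoxB2 counterpart (NM_177753, chromosome 14, 118632456 to 118636252), went the other way from most of the set on differentiation. It was at 3.60 FPKM in wild-type and 3.34 in Eed KO ES cells, at 1.36 and 0.553 in the corresponding EBs, and at 2.59 and 1.98 with the control and Setd2 hairpins. All 4 ES libraries were above both EB libraries. The value in KO EBs rested on about 34 fragments, a counting error of 17.1%.

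Sox4 (NM_009238, chromosome 13, 29042599 to 29045551) and Sox11 (NM_009234, chromosome 12, 28019133 to 28027583) are the SoxC factors of the set. Sox4 was at 17.6 FPKM in wild-type and 10.8 in Eed KO ES cells, at 165 and 52.2 in the corresponding EBs, and at 9.35 and 11.8 with the control and Setd2 hairpins. Sox11 was at 11.0 and 3.73 in wild-type and KO ES cells, 79.2 and 35.7 in EBs, and 3.45 and 7.21 with the control and Setd2 hairpins. For both genes the 2 EB libraries were above the 4 ES libraries, and wild-type EBs were the highest. Their profiles over the 6 libraries were the most alike of any pair in the set, with a root mean square difference of 0.31 between the log2(FPKM + 1) values after each gene's mean was removed.

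Sox9, the SoxE factor (NM_011448, chromosome 11, 112643524 to 112649071), was under 1 FPKM in all ES cells and present in EBs of both genotypes. It was at 0.170 FPKM in wild-type and 0.336 in Eed KO ES cells, 14.6 in wild-type and 6.25 in KO EBs, and 0.112 and 0.0871 with the control and Setd2 hairpins. The 2 EB values stood far above the 4 ES values.

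Fabp7, the brain lipid-binding protein of radial glia (NM_021272, chromosome 10, 57504729 to 57508256), exceeded 1 FPKM in 1 library. It was at 162 FPKM in wild-type EBs and listed at 0 in Eed KO EBs. In ES cells it was at 0.289 in wild type, 0.338 in Eed KO and 0.124 with the control hairpin, and listed at 0 with the Setd2 hairpin. An exact 0 in a table of this kind can be a failed estimate. Of the 1361 genes at 50 FPKM or more in wild-type EBs, 39 were listed at 0 in KO EBs, while 0 of 11 housekeeping genes were. Those of the 39 highest in wild-type EBs included the small RNA loci Snord43, Snord71, Snord42b and Snord49b. How many of the 39 were protein-coding was not counted, so they are no measure for a gene like Fabp7.

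Nes, the intermediate filament that defines many neural stem cells (NM_016701, chromosome 3, 87775015 to 87784373), was already present in E36 ES cells. It was at 23.6 FPKM in wild-type and 11.6 in Eed KO ES cells, 32.1 in wild-type and 6.31 in KO EBs, and 2.24 and 5.25 with the control and Setd2 hairpins. The order of the E36 libraries followed genotype before stage: both wild-type values were above both KO values.

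Vim, the filament shared by radial glia and mesenchyme (NM_011701, chromosome 2, 13495938 to 13504453), was the most abundant of the 10. It was at 117 FPKM in wild-type and 50.1 in Eed KO ES cells, 629 in wild-type and 144 in KO EBs, and 81.5 and 68.3 with the control and Setd2 hairpins. Vim exceeded Nes 4.97-fold in wild-type ES cells, 19.6-fold in wild-type EBs and 22.8-fold in KO EBs. In E14 cells that ratio was 36.3 with the control and 13.0 with the Setd2 hairpin.

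Msi1, the RNA-binding regulator of stem cell translation (NM_008629, chromosome 5, 115879694 to 115904211), varied little among ES cells. It was at 7.68 FPKM in wild-type and 5.895 in Eed KO ES cells, 49.6 in wild-type and 17.5 in KO EBs, and 7.57 and 6.45 with the control and Setd2 hairpins. Its relative Msi2 was the more abundant of the pair in all 4 ES libraries and in KO EBs, and only in wild-type EBs did Msi1 exceed it, by 1.35-fold. In KO EBs the Msi1 level was 0.751 of that of Msi2.

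Most of the set was higher after differentiation of wild-type cells. Differences below are of log2(FPKM + 1), and higher or lower is written of a gene where it reached 1 in either direction. Of the 10 genes 6 were higher in wild-type EBs than in wild-type ES cells and 0 lower, where 19.3% of the 14772 expressed genes were higher and 14.2% lower (33.5% in either direction). The 6 were Fabp7, Sox9, Sox4, Sox11, Msi1 and Vim. The median difference was 2.48 over the 10 genes and 0.02 over all.

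Fabp7 differed by 6.98 (559-fold, from 0.289 FPKM, so that the fold itself is imprecise) and ranked 13 from the top of all expressed genes. Sox9 differed by 3.74 (86.2-fold, from under 1 FPKM), Sox4 by 3.16 (9.39-fold) and Sox11 by 2.74 (7.19-fold). Msi1 differed by 2.54 (6.45-fold) and Vim by 2.41 (5.37-fold). The SoxB genes and Nes were not called: Sox1 differed by 0.93, Nes by 0.43, Sox3 by 0.09 and Sox21 by -0.97. Sox21 and Sox1 were the genes nearest to the threshold.

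The makeup of Sox RNA differed between the stages, with less from SoxB1 and more from SoxC genes in EBs. Of the summed FPKM of 20 Sox genes, SoxB1 genes held 71.9% in wild-type ES cells and 17.2% in wild-type EBs. SoxC genes held 16.2% and 74.0%. SoxE genes went from 0.354% to 4.28%, with Sox9 the largest part in EBs. Most of the SoxB1 sum was Sox2, the SoxB1 factor that ES cells also use, at 177 FPKM in ES cells and 52.6 in EBs.

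**Figure D2:**
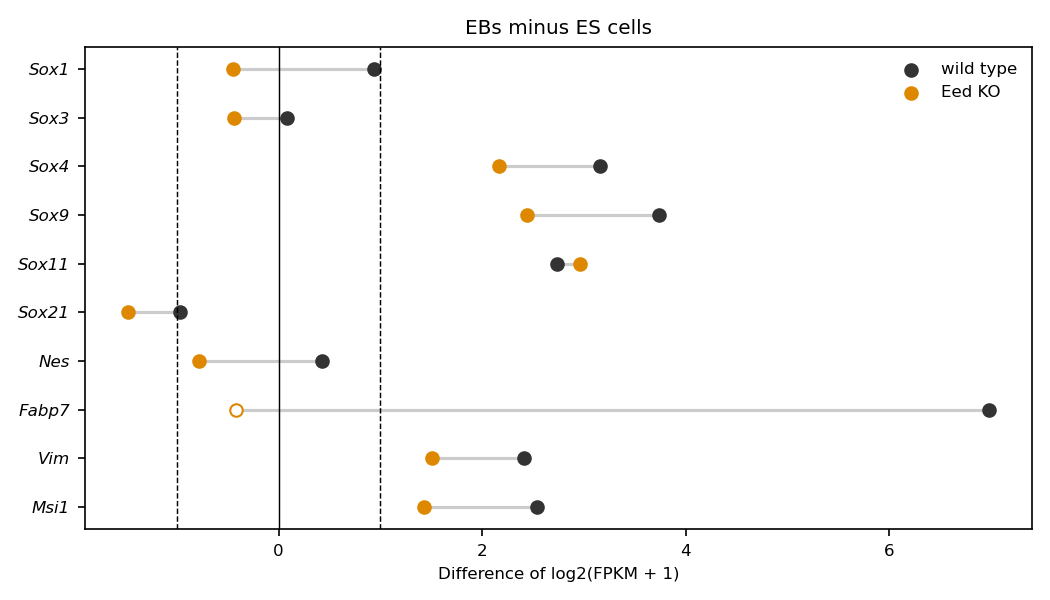
Difference in log2(FPKM + 1) between EBs and ES cells for the 10 genes, in wild-type and in Eed KO cells, with dashed lines at -1 and 1; an open circle marks a value that involves a library listed at 0. Sox4, Sox9, Sox11, Vim and Msi1 lie above 1 in both genotypes, while Fabp7 does so in wild type alone.

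Related genes differed in the same step. Of 20 other neural progenitor genes, 10 were higher in wild-type EBs and 1 lower, with a median of 1.14, and of 17 expressed radial glia and astrocyte genes 12 were higher and 1 lower, with a median of 1.88. The neural genes included the transcription factors Pou3f3 (0.156 to 21.7 FPKM), Pou3f2 (0.182 to 18.5) and Rfx4 (0.307 to 16.2). The growth factor Ptn, which radial glia secrete, went from 0.875 to 203 FPKM. Neuron markers were higher for 10 of 13, and mesenchyme markers for 9 of 12, with none lower in either list.

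In EBs, 9 of the 10 genes were lower in Eed KO than in wild type, and 0 were higher. Over all 14772 expressed genes 9.82% were lower and 7.68% higher (17.5% in either direction). The exception was Sox21, at -0.60. The median difference was -1.55 over the 10 genes and -0.14 over all.

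Nes showed a difference of -2.18, with 19.7% of the wild-type FPKM left, and Vim -2.12, with 22.9% left. Sox1 differed by -1.84, Sox4 by -1.65 (31.6% left) and Msi1 by -1.45 (35.3% left). Fabp7 went from 162 FPKM to a listed 0, for which no fold is given. These 6 genes were past the threshold under each of the 3 rescalings. With a pseudocount of 5, which weighs down weak genes, Sox1 was at -0.64 and the count of lower genes was 6, without Sox1, Sox3 and Sox9.

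Sox3, Sox11 and Sox9 were closer to the threshold, at -1.16, -1.13 and -1.11, with 35.8%, 45.1% and 42.7% of the wild-type level left. With the libraries rescaled by upper quartile, Sox11 and Sox9 were at -0.99 each and the count of lower genes was 7. Sox9 lies on chromosome 11, whose genes had a median difference of -0.72 between Eed KO and wild-type EBs, or -0.54 relative to all genes. After the median of each gene's own chromosome was subtracted, Sox9 differed by -0.39 and Sox11 by -0.96, and the count was again 7. For Sox11 that median, of chromosome 12, was -0.16, or 0.02 relative to all genes. Subtracting it thus also removes the shift of all genes. Nes lies on chromosome 3, where the median was 0.40 (0.58 relative to all genes), so its difference relative to the chromosome was -2.57. Relative to all genes, Eed KO against wild-type ES cells also gave such a shift, at -0.47 for chromosome 11 and 0.34 for chromosome 3. Between the E14 control and E36 wild-type ES cells, chromosome 11 was at -0.43 and chromosome 3 at 0.05 on the same scale. Both of these ES comparisons have the E36 wild-type library as denominator, so they are not independent. Which library departs on chromosome 11 was not tested. The part of such shifts in the values was not tested.

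**Figure D3:**
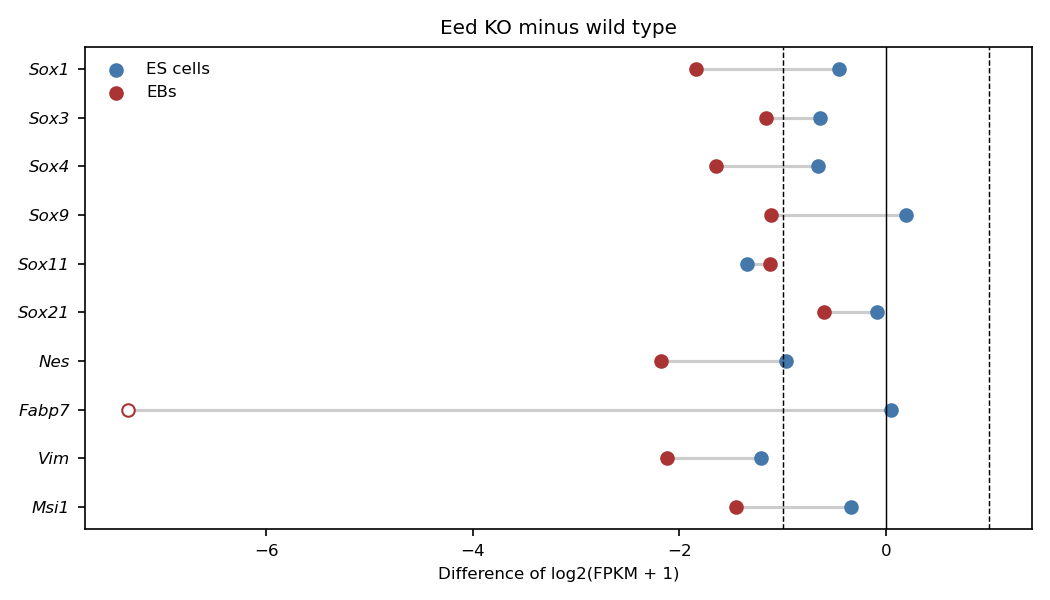
Difference in log2(FPKM + 1) between Eed KO and wild type for the 10 genes, in ES cells and in EBs, with dashed lines at -1 and 1; an open circle marks a value that involves a library listed at 0. Sox11 and Vim lie below -1 at both stages, and every gene but Sox21 does so in EBs.

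The lower neural levels in Eed KO EBs were not shared by all neural genes. Of the 20 other neural progenitor genes 7 were lower and 4 higher, with a median of -0.28. Rfx4 went from 16.2 FPKM in wild-type to 0.101 in KO EBs, Pou3f2 from 18.5 to 0.840, and Hes5, a Notch target of progenitors, from 9.67 to a listed 0. In the other direction, the homeobox gene Six3 went from 0.140 to 4.14.

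Among the 17 expressed radial glia and astrocyte genes 3 were lower and 1 higher, with a median of -0.35. Id4, an inhibitor of differentiation in neural precursors, went from 37.1 to 3.58 FPKM, the glutamate transporter Slc1a2 from 2.93 to 0.129 and the phosphatase Ptprz1 from 5.74 to 1.16. Clu, a secreted chaperone of astrocytes and many epithelia, went from 17.3 to 117. The radial glia transporter Slc1a3 was at 15.0 and 22.3 FPKM and Ptn at 203 and 348, neither of them lower.

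All 13 neuron markers were lower in KO EBs, with a median of -4.18. Tubb3, a neuronal tubulin, went from 290 to 1.23 FPKM, the neurofilament Ina from 41.3 to 0.317, and Map2, a dendrite protein, from 41.8 to a listed 0. The part of cell makeup in the lower Sox4, Sox11 and Fabp7 values was not tested. Of 14 other intermediate filament genes 3 were lower in KO EBs, the neuronal Ina, Nefl and Nefm, which are also among the 13 neuron markers. The neuronal filament genes Nefh (0.352 to 0.140 FPKM) and Prph (2.37 to 2.43) were within the threshold. Krt18 (28.2 to 92.2), Krt8 (28.7 to 62.4) and Des (12.3 to 26.1), filaments of epithelia and muscle, were higher.

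Markers of other tissues that use some of these genes were for the most part not lower. Mesenchyme markers, which accompany Vim outside the nervous system, were higher for 4 of 12 and lower for 0, with a summed level of 1317 FPKM in wild-type and 2300 in KO EBs; Col1a2 went from 138 to 589. Cartilage matrix genes, which accompany Sox9 in chondrocytes, were higher for 4 of 8 and lower for 0, and summed to 40.2 and 128 FPKM. Col9a2 went from 4.84 to 31.3 and Col11a1 from 18.02 to 66.7, while Col2a1, a direct Sox9 target in cartilage, was at 14.2 and 15.6. Of 9 neural crest genes 3 were lower (Tfap2b, Pax3, Ngfr) and 2 higher (Erbb3, Snai2). All 6 expressed endoderm markers were higher, with Gata4 going from 3.30 to 24.8 FPKM. Of 8 pluripotency markers 7 were lower, of 5 expressed oligodendrocyte genes 1 was higher (Cspg4, 0.823 to 2.94), and of 11 housekeeping genes 1 was lower (Ppia).

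Relatives of the members showed mixed values. Of 5 expressed genes related to Fabp7, 3 were lower in KO EBs: the epidermal Fabp5 went from 128 to 36.4 FPKM and the retinoic acid binding proteins Crabp1 and Crabp2 from 382 to 108 and from 143 to 64.6. Of 8 other expressed Sox genes 3 were lower, among them Sox2 (52.6 to 7.14), and 1 was higher, the SoxE gene Sox8 (0.511 to 2.45). SoxB1 genes then held 7.11% of Sox FPKM in KO EBs, and SoxC genes 76.0%. The SoxC sum itself was 266 FPKM in wild-type and 101 in KO EBs.

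**Figure D4:**
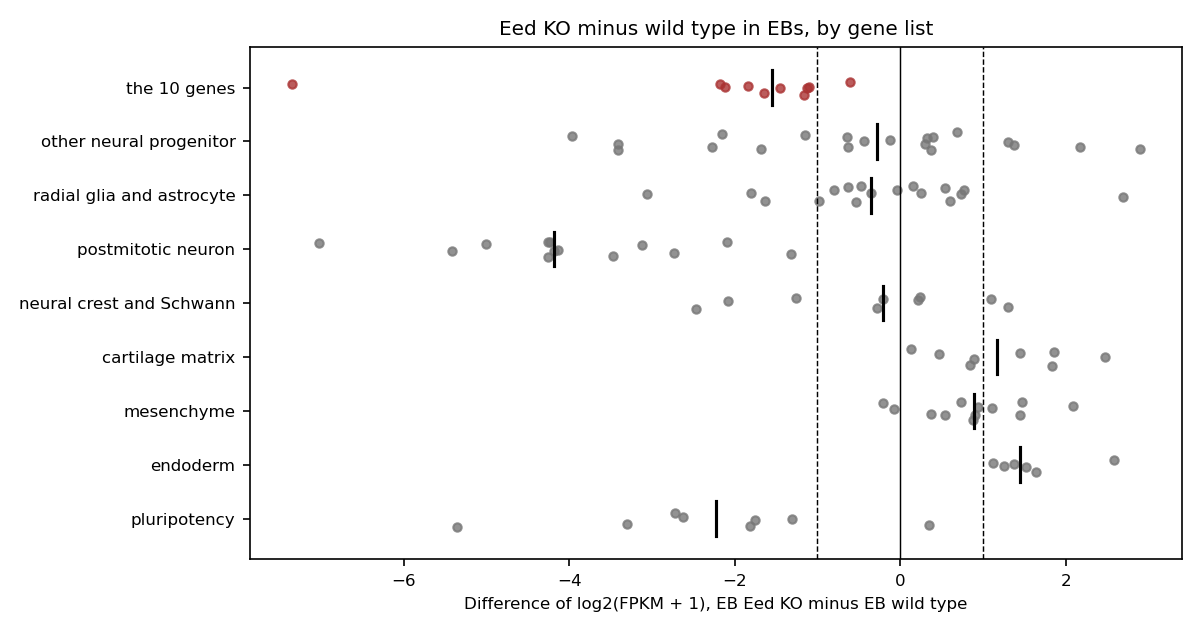
Difference in log2(FPKM + 1) between Eed KO and wild-type EBs for the expressed genes of 9 lists (rows), with Fabp7 drawn at the value that its listed 0 gives; points are genes and the black tick is the list's median. The 10 described genes have a median of -1.55 and the postmitotic neuron markers -4.18, while cartilage matrix genes (1.17) and endoderm markers (1.45) lie on the other side of 0.

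Part of the set was also higher in EBs than in ES cells among Eed KO samples. Between KO ES cells and KO EBs 5 of the 10 genes were higher and 1 was lower, against a background of 19.7% of expressed genes higher and 18.5% lower (38.3% in either direction). Sox11 differed by 2.96 (9.59-fold), Sox9 by 2.44 (18.6-fold) and Sox4 by 2.17 (4.82-fold). Vim differed by 1.503 (2.87-fold) and Msi1 by 1.42 (2.97-fold). Sox21 was lower, by -1.48, with the EB value under 1 FPKM. Nes was at -0.78, Sox1 at -0.45 and Sox3 at -0.44.

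The Eed difference was set against itself at the 2 stages by subtracting its value in ES cells from that in EBs. This gave a difference of at least 1 downward in 5 genes (Fabp7, Sox1, Sox9, Nes and Msi1) and upward in 0, where 10.1% of expressed genes went downward and 9.13% upward (19.2% in either direction). Sox1 was at -1.38, Sox9 at -1.30, Nes at -1.21 and Msi1 at -1.12. Sox4, at -0.99, and Vim, at -0.91, were just inside the threshold. For Sox11 the value was 0.22: it was lower in KO by 1.35 in ES cells and by 1.13 in EBs. These comparisons reuse the same 4 libraries and are not independent of each other.

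In ES cells, 2 of the 10 genes were lower in Eed KO than in E36 wild type and 0 were higher, against 3.01% of all expressed genes lower and 2.82% higher (5.84% in either direction). They were Sox11 (-1.35, from 11.0 to 3.73 FPKM) and Vim (-1.21, from 117 to 50.1). Nes, at -0.97, was just inside the threshold; relative to the median of chromosome 3 it was at -1.26, which made 3 genes lower. With a pseudocount of 5 Sox11 was at -0.88 and Vim alone was lower. Sox4 differed by -0.65, Sox3 by -0.63, Sox1 by -0.45 and Msi1 by -0.33, while Sox21 (-0.08), Fabp7 (0.05) and Sox9 (0.19) were near 0. The median was -0.54 over the 10 genes and -0.03 over all. Of the 20 other neural progenitor genes 1 was higher and 2 were lower, and of 17 radial glia and astrocyte genes 1 was higher and 1 lower.

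These values depended on the control library. Against the E14 control-hairpin library, Eed KO ES cells had 2 of the 10 genes higher (background 4.7%) and 1 lower (3.31%). Nes was higher by 1.95 and Sox3 by 1.23, and Sox1 was lower, at -1.45. Sox11 was at 0.09 and Vim at -0.69. Sox11 in Eed KO ES cells, at 3.73 FPKM, was thus close to the 3.45 of the E14 control, while Vim was below both controls.

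**Figure D5:**
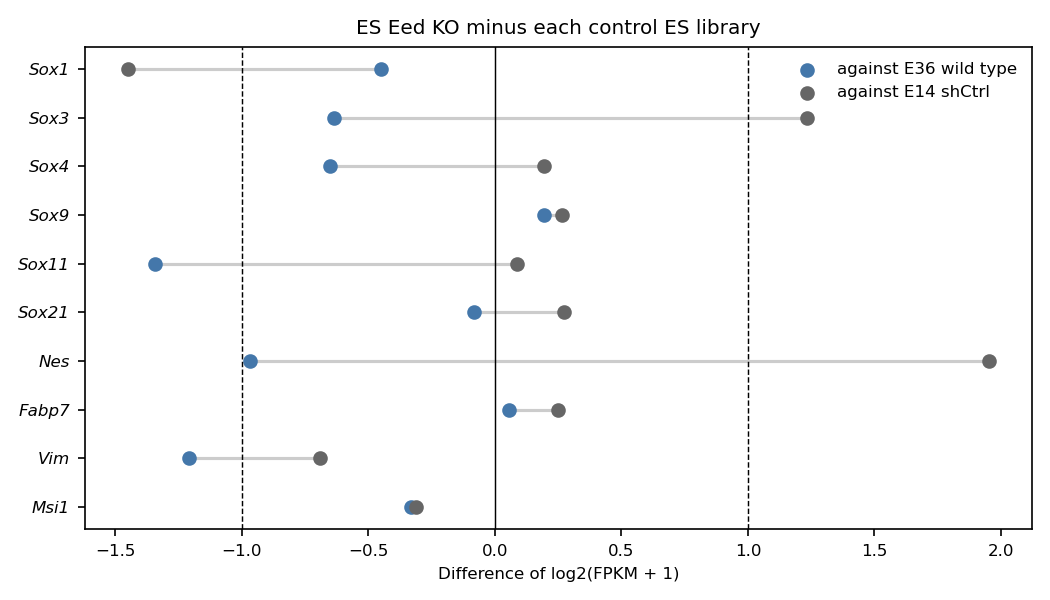
Difference in log2(FPKM + 1) between Eed KO ES cells and each control ES library for the 10 genes (rows), with blue points against E36 wild type, grey points against the E14 control hairpin, a line joining the 2 and dashed lines at -1 and 1. For Nes (-0.97 and 1.95) and Sox3 (-0.63 and 1.23) the points lie on opposite sides of 0, and for Vim (-1.21 and -0.69) both lie below it.

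The control lines themselves differed in 4 of the 8 genes expressed in either. In the E14 control Nes was lower than in E36 wild type by 2.92 (10.5-fold), Sox3 by 1.87 (6.73-fold) and Sox11 by 1.43 (3.19-fold). Sox1 was higher, at the threshold of 1.00. Over 12747 expressed genes 5.65% were lower and 3.14% higher (8.79% in either direction). These libraries differ in line, vector and selection, which cannot be told apart. The X-linked housekeeping gene Hprt was at 114 FPKM in E36 wild-type and 87.7 in Eed KO ES cells, and at 0.567 and 0.770 in the E14 control and Setd2 libraries. For Sox11, which was lower in Eed KO ES cells, the control libraries differed by more (-1.43) than the genotypes did (-1.35), and the same held in size for Nes, Sox3, Sox1, Sox4 and Sox21. For Vim the control libraries differed by less (-0.52). In EBs no further control library was used here.

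With the Setd2 hairpin none of the 8 expressed genes was called higher or lower, where 0.706% of 12317 expressed genes were higher and 1.7% lower (2.41% in either direction). The values nearest to the threshold were Nes at 0.95 (2.24 to 5.25 FPKM), Sox11 at 0.88 (3.45 to 7.21) and Sox3 at 0.79 (0.860 to 2.21). They ranked 99, 121 and 161 from the top of all expressed genes. Sox4 was at 0.31, Sox1 at -0.11, Msi1 at -0.20, Vim at -0.25 and Sox21 at -0.27. The median of all genes was -0.13, and with the libraries rescaled to equal totals, upper quartiles or median ratios 2 genes, Sox11 and Nes, were above the threshold. Nes, Sox3 and Sox11 were also the 3 genes that were lower in the E14 control than in E36 wild type; both comparisons use that control library. Of 10 other neural progenitor genes and 8 radial glia and astrocyte genes expressed in E14 cells, 0 were called either way with the Setd2 hairpin.

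The genes with profiles most like each member over the 6 libraries were sought among 11064 genes reaching 5 FPKM in at least 1 library, by the same root mean square difference. Sox9 was closest to the homeobox gene Msx1 (0.12), the neurotrophin receptor gene Ntrk2 (0.14) and Samd14 (0.15). Sox4 was closest to Zfhx4 (0.14), Dusp8 (0.19) and Hic1 (0.21), and Msi1 to Tspyl4 (0.08), Edil3 (0.11) and Mvb12b (0.12). Vim was closest to the actin-binding drebrin gene Dbn1 (0.18), Ddit4 (0.30) and Kif5c (0.31).

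Sox11 was closest to Dlg4 (0.22), the N-cadherin gene Cdh2 (0.29) and Bcl11a (0.30), and Sox3 to Bcar1 (0.21), Dynll2 (0.23) and Lfng (0.23). Nes had no close match: Gap43, a growth cone protein of neurons, was at 0.32, Cnn1 at 0.43 and Sox3 at 0.49. Sox21 was closest to Lsm4 (0.05), the PRC2 subunit gene Suz12 (0.06) and Farsa (0.06), whose small distances go with small differences between libraries. Sox1 was closest to Mcts2 (0.21), Vat1 (0.25) and Stc2 (0.28). Fabp7 was closest to hairpin loci listed at 0 in all libraries but wild-type EBs (Mir344f at 0.18, Mir5126 at 0.25 and Mir483 at 0.29). The nearest protein-coding gene, sought after these values were seen, was Igfbpl1 (0.60), at 126 FPKM in wild-type EBs and 1.34 in KO EBs.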

How the data were processed

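The RNA-seq data come from 6 libraries, 1 per group: E36 wild-type and Eed KO ES cells, EBs of both, and E14 cells with a control or Setd2 hairpin. Per the labels' protocols, total RNA was extracted with Trizol and libraries were made with the TruSeq RNA v2 kit, which selects poly(A) RNA and does not mark strand. The authors deposited 1 FPKM value per RefSeq transcript and library, made with TopHat and Cuffdiff on mm9, per the submitters' processing notes. The sources used here do not give their versions, options, annotation or scaling between libraries.

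Of 29851 transcripts, 29300 were matched to a symbol through a RefSeq table of GRCm38.p6, used for names only. Of 23421 gene entries, 3939 had several transcripts, and the one with the highest mean was used. Differences are of log2(FPKM + 1), a pseudocount of 1 that understates changes of weak genes. A gene was expressed at FPKM of at least 1 in at least 1 E36 library, or, in comparisons with E14, in at least 1 of the pair compared. The size rule was a difference of at least 1, and 7 comparisons were made. With 1 library per group no test, p-value or error between replicates exists; counting errors quoted cover counting only. Coordinates are those of the table on mm9, counted from 1. Depth was estimated from the values worth 1 fragment in weakly expressed single-exon genes.

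The members and 13 gene lists were chosen with earlier results of these data known. All members are named. Of each list, up to 4 genes with the largest difference and those high in wild-type EBs may be named, and for each member the 3 genes of most similar profile. Six3, Slc1a3, Krt8, Des, Nefh, Prph, Snai2, Msi2, Igfbpl1, the Snord loci and the mature glia markers fall outside this rule. They were picked after their values were seen. Alternatives covered the pseudocount, the filter, the transcript choice, 3 rescalings, the size rule, the chromosome median and the E14 library as control. Python 3.11.15 with numpy 2.4.6 and pandas 2.3.3 was used, and the functions were tested on simulated data.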

Additional observations from a re-analysis of the deposited data

Results flagged for a closer look

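For several genes the difference had opposite signs in the groups compared, though in no gene did both values reach the threshold of 1. Each group is 1 library, so these differences were not tested. For Sox9 the Eed KO difference was 0.19 in ES cells, at under 1 FPKM in both libraries, and -1.11 in EBs, a difference between the differences of -1.30. For Fabp7 it was 0.05 in ES cells, also under 1 FPKM, while EBs had 162 FPKM in wild type and a listed 0 in Eed KO.

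The difference between EBs and ES cells was 0.93 for Sox1 in wild type and -0.45 in Eed KO, which are -1.38 apart. Nes had values of 0.43 and -0.78, a difference of -1.21, and Sox3 of 0.09 and -0.44, a difference of -0.53. Fabp7 again belonged to this group, through the same 162 FPKM. The signs for Sox3 in wild type and for Sox9 and Fabp7 in ES cells rest on values near 0.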

How the results depend on the processing

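No paired analysis was possible because each group has 1 library, and for the same reason no replicate could be left out. Of the alternative counts of members called, 119 stayed within 1.5 times the count reported and 21 did not. The sum over transcripts could not change these counts, as each member has 1 transcript. Dropping the filter could not either, since the members it adds were under 1 FPKM in both libraries compared. Counts of 0 that stayed at 0 are also among the 119, which is therefore no measure of robustness. With the E14 library as control for Eed KO ES cells, Sox3 (1.23), Sox11 (0.087) and Nes (1.95) changed direction, as did Sox4 (0.19) and Sox21 (0.27), which were within the threshold under either control, and 2 genes were higher and 1 lower. With a pseudocount of 5, 1 gene was lower in Eed KO ES cells, 6 in Eed KO EBs, 0 in KO EBs against KO ES cells, 3 in the difference between stages, and 0 were higher and 1 lower in E14 against E36. With a pseudocount of 0.1, 1 was lower in wild-type EBs against ES cells, 3 were lower in KO EBs against KO ES cells and 3 were higher with the Setd2 hairpin. At a size rule of 1.5, 0 were lower in Eed KO ES cells, 5 in Eed KO EBs, 0 in KO EBs against KO ES cells and 1 in the difference between stages, and 0 were higher in E14 against E36. With expression set at 5 FPKM, 0 were lower in KO EBs against KO ES cells and 0 higher in E14 against E36. With the Setd2 hairpin 2 were higher under upper-quartile, median-of-ratios and equal-total rescaling, and under equal totals 0 were higher in E14 against E36.

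Counts over all genes moved with the pseudocount and the size rule. For Eed KO EBs, 1135 were higher and 1450 lower as reported, 452 and 627 with a pseudocount of 5, and 485 and 648 at a size rule of 1.5. For Eed KO ES cells, 417 and 445 became 937 and 887 with a pseudocount of 0.1, 129 and 179 with 5, 138 and 154 at the stricter rule, and 701 and 494 against the E14 library. For the Setd2 hairpin, 87 and 210 became 138 and 156 under upper-quartile rescaling, which took the higher share from 29.3% to 46.9%. Equal totals raised the median of all genes between wild-type EBs and ES cells from 0.02 to 0.26, and the higher share of calls from 57.6% to 71.5%; in KO cells the median went from -0.03 to 0.18 and the share from 51.5% to 63.9%. Median-of-ratios rescaling took the higher share in Eed KO EBs from 43.9% to 53.9% and their median from -0.14 to -0.03. The cause of these shifts was not tested. FPKM under about 1 rest on few fragments, which limits Sox1, Sox9 and Fabp7 in ES cells and Sox21 in KO EBs.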
